A study of Homo sapiens with 8 samples.

Results

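The genes here were the co-receptors ROR1, ROR2, LRP5 and LRP6, the Dishevelled genes DVL1, DVL2 and DVL3 and the scaffolds AXIN1, AXIN2 and APC. They encode proteins of Wnt signalling, from co-receptors at the cell surface to parts of the beta-catenin destruction complex. Their m6A peaks were taken from 2 deposited peak lists, 1 of control cells and 1 of cells with siRNA against YTHDF2 (DF2), as every peak whose gene name was one of these 10. This gave 38 of 28949 peaks, 19 of 15730 in control and 19 of 13219 in DF2 siRNA. The cells were U2OS, a human osteosarcoma line obtained from ATCC. YTHDF2 binds m6A in cytoplasmic mRNA and leads the bound mRNA to decay. The study asked where m6A lay in cytoplasmic RNA with and without this siRNA. Its 8 libraries formed 4 groups of 2, namely input RNA and anti-m6A immunoprecipitate of cells without knockdown, and the same pair of DF2 siRNA cells. The labels number the siRNA libraries without saying whether the numbers mark different siRNAs, and they name no time after transfection.

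Wnt ligands bind a Frizzled receptor together with a co-receptor. With LRP5 or LRP6 the signal recruits Dishevelled and AXIN to the membrane, so that the destruction complex of AXIN, APC and kinases no longer marks beta-catenin for degradation. ROR1 and ROR2 are receptor tyrosine kinase-like proteins that bind WNT5A and act mainly in beta-catenin-independent signalling. AXIN2 is itself a target gene of beta-catenin and acts as a feedback inhibitor. The methyl mark m6A is typically found near stop codons, in long internal exons and in 3′ UTRs of mRNA.

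The labels tie a list to both immunoprecipitated libraries of its condition, so there was no replicate check and no test between conditions. Fold enrichment, score and feature label are the authors' values per peak. Fold enrichment and score describe and rank peaks within a list, and a higher number in one list than in the other is not a measured change. The depth of the libraries is unknown. Shares are given with their 95% Clopper-Pearson (exact binomial) bounds, which cover counting error only, and peaks of 1 gene are not independent. The median fold enrichment was 20.8 over all control peaks and 17.7 over all DF2 siRNA peaks, and the median scores were 143 and 74. A peak is not a level of RNA. Of 8 bone lineage markers, RUNX2 and COL1A1 carried a peak in both lists, and of 8 markers of other cells the endothelial gene CDH5 did. The identity of the cells and the degree of knockdown were not analysed here.

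Peaks were found in 8 of the 10 genes in control and in 8 of 10 in DF2 siRNA. ROR1, ROR2, LRP5, LRP6, DVL1, AXIN1 and APC had peaks in both lists, AXIN2 under its own name in control only, and DVL3 in DF2 siRNA only. DVL2 had none. Of 20056 RefSeq protein-coding symbols, 37.2% were named in the control list, 34% in the DF2 siRNA list and 31.6% in both. These symbols include genes that U2OS cells may not express and genes that the lists give under an older name. Among all genes with a control peak, 79.7% had one after DF2 siRNA too, against 7 of 8 here. In the other direction the share was 92.9%, against 7 of 8.

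Peaks of ROR1, DVL3, DVL1 and AXIN1 lay at or near the start of the gene, and the first 30 transcribed bases of these genes are shown to place the peaks against it. They are given with DVL2, the Dishevelled gene without a peak. The sequences are those of RefSeq (GRCh38.p14), whose table of gene starts had entries for 8 of the 10 genes, LRP6 and AXIN2 being the others. Bases in capitals lie inside a deposited peak.
ROR1 (chr1:63774017-63774046, plus strand): aagttGAGCGAGAGAGGGAGCGTGGAGAGC
DVL3 (chr3:184155377-184155406, plus strand): gggccgggaggGCCGCGGCCACCGGAAGAG
DVL1 (chr1:1349389-1349418, minus strand): gcggccacgctcaggaccccgggccgggcg
DVL2 (chr17:7234488-7234517, minus strand): gggtacctggaggaagctcgcggcgtcggt
AXIN1 (chr16:352694-352723, minus strand): acttccggacgccgccggcgggggcgctcg
In ROR1 the peak began 5 bases after the RefSeq start and in DVL3 11 bases after it. The DVL1 peak of the DF2 siRNA list began 68 bases downstream of the start, and the AXIN1 peak of both lists 250 bases downstream. None of these 5 genes had the letters GGACT, a common form of the m6A motif, on the transcribed strand in its first 50 transcribed bases. Among the 9 member windows, 1 of the 2 starts of APC had it, and 1 window had the reverse complement AGTCC. Over 35116 RefSeq starts the shares were 4.9% for GGACT, 4.91% for AGTCC and 9.62% for either. These windows are short, so they say nothing about the rest of a peak.

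ROR2 carried the strongest peak of the 10 genes in both lists. Its peak over coding sequence, stop codon and 3′ UTR ran from 91722739 to 91724938 on chromosome 9 (hg38) in control, with 2200 nt of exonic sequence, at a fold enrichment of 239 (score 2466). It was number 10 of the control list by fold enrichment. The DF2 siRNA peak ran from 91722939 to 91726571, also with 2200 nt, at a fold enrichment of 175 (score 1292), and was number 29 of its list. Both peaks shared 2000 nt and had the same labels. The control peak reached closer to the 3′ end, to 138 nt from it against 338 nt, and the DF2 siRNA peak took in a further block upstream. A second peak, 5′ of the first, was weak in both lists. It was listed at 11.1 (score 28) in control, labelled 5′ UTR, and at 8.26 (score 15) in DF2 siRNA, without a label.

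ROR1 held 3 control peaks and 4 DF2 siRNA peaks, and their order by fold enrichment differed between the lists. The peak at the 5′ end of the gene (chromosome 1, 63774022 to 63774421, coding and 5′ UTR) had the same interval in both, at 39.3 (score 294) in control and 49.2 (score 127) in DF2 siRNA. Downstream, control had a peak of 1800 nt in 3 blocks from 64142554 to 64178183 at a fold enrichment of 109.8 (score 562). In DF2 siRNA the same stretch held 2 separate peaks, 1 of 600 nt at 13.0 (score 25) and 1 of 800 nt at 38.7 (score 106). The last peak, labelled coding, stop codon and 3′ UTR, was 1200 nt wide in control, at 116 (score 629), and 800 nt wide in DF2 siRNA, at 21.3 (score 51). The 5′ peak was thus the lowest of 3 in control and the highest of 4 in DF2 siRNA. Among control peaks, the 3′ peak stood at percentile 97.3 and the 5′ peak at 72.2. Among DF2 siRNA peaks they stood at 57.9 and 85.3. All 2600 nt under DF2 siRNA peaks of ROR1 also lay under control peaks, which covered 3400 nt. A wider peak adds up more sequence, and its part in the difference in order was not tested.

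**Figure D1:**
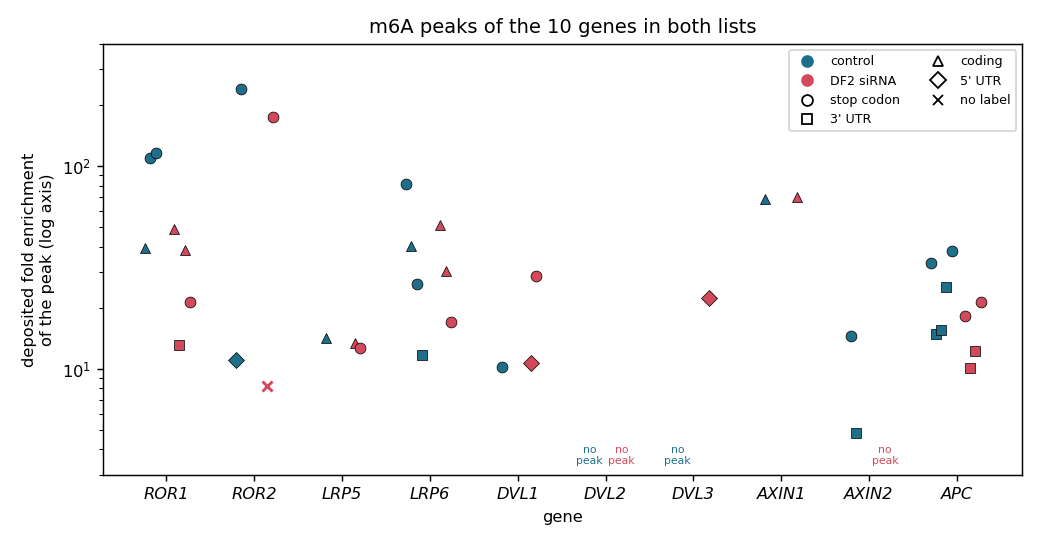
Deposited fold enrichment of each peak (log axis) of the 10 genes, with control peaks in blue on the left and DF2 siRNA peaks in red on the right of each gene, and symbols for the feature label. ROR2 has the highest point in both lists (239 and 175), and ROR1 has its lowest control point at the 5′ end (39.3), where its highest DF2 siRNA point lies (49.2).

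LRP6 carried peaks from its 5′ end to its 3′ UTR, and LRP5 had fewer, with a lower best fold enrichment and score. The first LRP6 peak of control ran from 12187044 to 12266812 on chromosome 12, 800 nt in 4 blocks, at a fold enrichment of 81.7 (score 2411). Its DF2 siRNA counterpart ran from 12203327 to 12267012, also 800 nt, at 51 (score 490), and shared 600 nt with it. The DF2 siRNA peak began 32 nt from the RefSeq start and the control peak 232 nt from it. Next came a coding peak, 1000 nt at 40.3 (score 1260) in control and 800 nt at 30.4 (score 271) in DF2 siRNA. The peak at the stop codon near the end of the gene had 600 nt at 26.3 (score 496) in control and 400 nt at 17.0 (score 96) in DF2 siRNA. One more peak, in the 3′ UTR, 400 nt at 11.7 (score 192), was listed in control only. From 5′ to 3′ the fold enrichment of LRP6 peaks went down in both lists, so the order of the 3 shared peaks was the same.

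LRP5 had a coding peak with the same interval in both lists (chromosome 11, 68347850 to 68357655, 400 nt). It was listed at 14.2 (score 481) in control and at 13.5 (score 149) in DF2 siRNA. A peak over the stop codon, 364 nt from 68448912 to 68449275 and ending at the RefSeq end of the gene, was in the DF2 siRNA list only, at 12.7 (score 59). All LRP5 peaks lay below the median fold enrichment of their list.

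The Dishevelled genes encode adaptor proteins that link the receptors to AXIN. Of the 19 DF2 siRNA peaks of the 10 genes, 16 overlapped a control peak, against 87.5% of all DF2 siRNA peaks. Of the 3 others, 2 were on Dishevelled genes. DVL1 had a peak at its stop codon in both lists. In control it ran from 1335890 to 1336289 on chromosome 1, at 10.2 (score 232) and with a −log10 p of 1.38, close to the list's minimum of 1.30. In DF2 siRNA it ran from 1335690 to 1336289, at 28.8 (score 270) and with a −log10 FDR of 6.35. The control peak stood at percentile 19.2 of its list by fold enrichment and the DF2 siRNA peak at percentile 68.9. By score they stood at percentiles 59.8 and 79.4. A second DVL1 peak, 200 nt in the 5′ UTR (1349151 to 1349350), was in DF2 siRNA only, at 10.6 (score 19).

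DVL3 had a single peak, 200 nt in the 5′ UTR (chromosome 3, 184155388 to 184155587), in DF2 siRNA only. Its fold enrichment was 22.2, its score 115 and its −log10 FDR 4.99, which put it at percentile 59.4 of that list. The 5′ UTR peaks of DVL1 and DVL3 overlapped no control peak. A 5′ UTR label was carried by 4 of 19 control peaks here, against 24.3% of the list, and by 5 of 19 DF2 siRNA peaks, against 25.9%. No peak of any gene was listed within the RefSeq ends of DVL2 (chromosome 17, 7225342 to 7234517). The absence of a peak in a list does not show that the RNA carried no m6A.

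AXIN1, the scaffold of the destruction complex, had 1 peak in each list, over the same bases. This peak (chromosome 16, 314548 to 352473, 1200 nt in 3 blocks, coding and 5′ UTR) was listed at 69.0 (score 922) in control and at 70.0 (score 500) in DF2 siRNA. Over the 4643 intervals that were identical in both lists, fold enrichment had medians of 28.9 (control) and 23.8 (DF2 siRNA), and scores had medians of 303 and 120. The AXIN1 peak carried no stop codon label in either list.

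AXIN2 was named in the control list only, with peaks of low fold enrichment and score. From 5′ to 3′ their −log10 p was 6.61 and 1.52. The first (chromosome 17, 65549628 to 65558572, 800 nt) was listed at 14.6 (score 19), and the second, in the 3′ UTR (65529389 to 65529788, 400 nt), at 4.83 (score 5), which stood at percentile 2.11 of the list by score. The first peak shared 763 nt with a peak that both lists give on the same strand under another gene name, CTD-2535L24.2 (65549591 to 65558535, 800 nt). That peak was listed at 13.7 (score 16) in control and at 9.87 (score 11) in DF2 siRNA. Reads of AXIN2 and of the overlapping gene cannot be told apart there. When peaks were assigned by position within RefSeq ends, AXIN2 thus had a peak in both lists, and 8 of the 10 genes did. The 3′ UTR peak of AXIN2 had no counterpart in DF2 siRNA under any name. Of the 2021 genes in the control list only, 2.23% had a peak that was overlapped in this way by another gene's peak of the DF2 siRNA list. The share was 3.63% for the 606 genes in the DF2 siRNA list only, and the DVL3 peak was not overlapped.

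APC, which binds beta-catenin and AXIN, had the most peaks of the 10 genes in control (5) and shared that place with ROR1 in DF2 siRNA (4), and most of their sequence lay toward the 3′ end of the gene on chromosome 5, where APC has a very long last exon. In control they were, from 5′ to 3′, at fold enrichments of 33.4 (score 259), 14.9 (177), 15.5 (182), 25.3 (394) and 38.1 (409). The DF2 siRNA peaks, which lay at all of these sites but the second, had 18.2 (score 71), 10.05 (68), 12.2 (55) and 21.4 (109). The peaks at both ends of the series were the strongest in each list, and the order of the 4 shared sites was the same. The last peak, from 112843200 to 112844199 with a stop codon label, had the same interval in both lists, as had the one from 112840200 to 112840599. The second control peak (112838400 to 112838999, 600 nt) overlapped no DF2 siRNA peak. The DF2 siRNA peak at 12.2, 400 nt wide, lay inside a control peak of 1200 nt. Its neighbour at 10.05 had a −log10 FDR of 1.30, at the edge of the list.

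**Figure D2:**
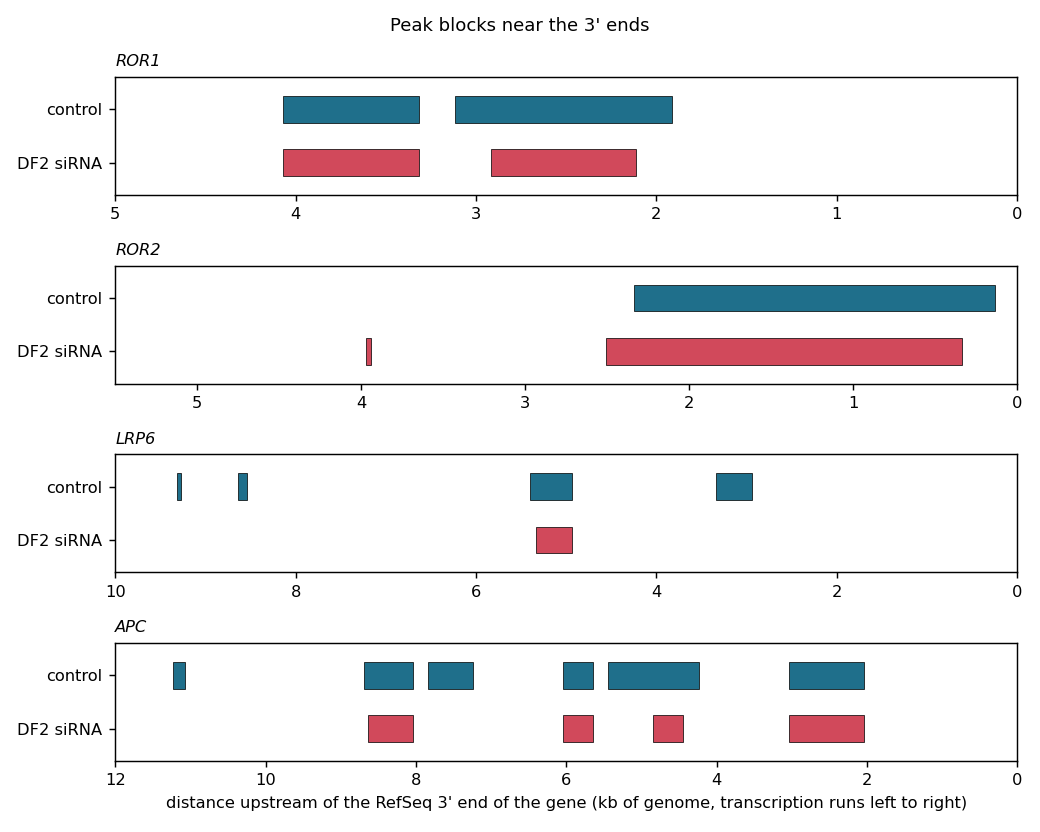
Blocks of the deposited peaks near the 3′ ends of ROR1, ROR2, LRP6 and APC, drawn to scale by distance from the RefSeq 3′ end in kb of genome, with control in blue above and DF2 siRNA in red below. In ROR1 the last control block is 1200 nt wide and the DF2 siRNA block inside it 800 nt, and in APC the second of the control peaks has no DF2 siRNA block under it.

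Most peaks of the 10 genes lay on a peak of the other list. Of the 19 control peaks, 16 (84.2%, interval 60.4 to 96.6%) shared at least 1 base with a DF2 siRNA peak on the same strand, 1 of them through CTD-2535L24.2. Over all control peaks the share was 71.9%. Of the 19 DF2 siRNA peaks, 16 also overlapped a control peak, against 87.5% of all DF2 siRNA peaks. Both background shares lay within the interval. The peaks without a counterpart were the 3′ UTR peaks of LRP6 and AXIN2 and the second APC peak in control, and the stop codon peak of LRP5 and the 5′ UTR peaks of DVL1 and DVL3 in DF2 siRNA. An identical interval was found for 5 peaks, namely those of ROR1, LRP5 and AXIN1 and a pair in APC. That is 5 of 19 in each list, against 29.5% of all control peaks and 35.1% of all DF2 siRNA peaks.

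Peaks of the 10 genes covered 16000 nt of exonic sequence in control and 12364 nt in DF2 siRNA. Of the control sequence, 11763 nt (73.5%) lay under a DF2 siRNA peak of any gene name, 763 nt of them in AXIN2 under CTD-2535L24.2. Of the DF2 siRNA sequence, 11000 nt (89.0%) lay under a control peak. Counted in the same way over all peaks, the shares were 69.8% and 87.9%. The covered length was greater in control for APC (4000 and 2400 nt), LRP6 (2800 and 2000 nt), ROR1 (3400 and 2600 nt), ROR2 (2600 and 2400 nt) and AXIN2 (1200 and 0 nt). It was greater in DF2 siRNA for LRP5 (400 and 764 nt), DVL1 (400 and 800 nt) and DVL3 (0 and 200 nt). AXIN1 had 1200 nt in both. Covered length moves with how much was called in a list, and all control peaks covered 12.2 Mb against 9.68 Mb in DF2 siRNA.

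**Figure D3:**
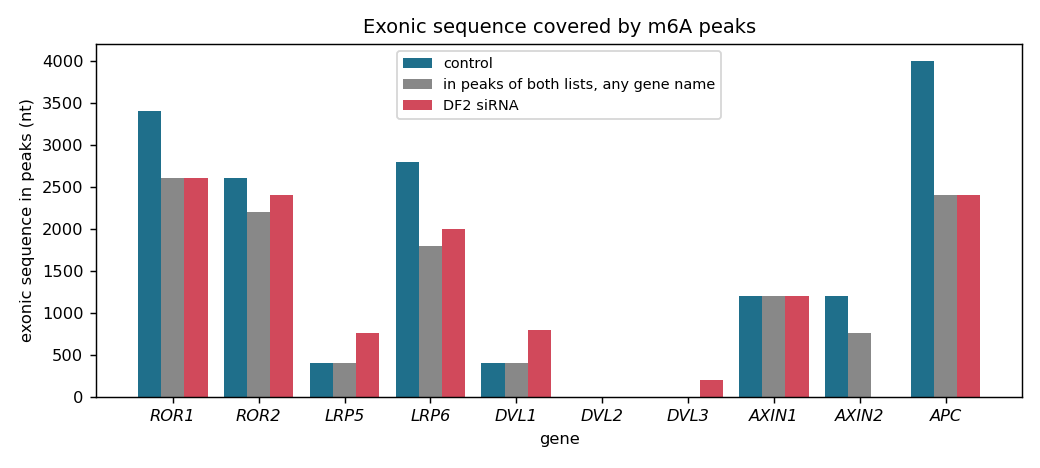
Exonic sequence under peaks of each gene in nt, as bars from 0 for control (blue), for sequence under peaks of both lists whatever their gene name (grey) and for DF2 siRNA (red). The bars of ROR1 and APC show that all of their DF2 siRNA sequence (2600 and 2400 nt) lies under control peaks, those of AXIN1 are equal, and the grey bar of AXIN2 (763 nt) lies under the DF2 siRNA peak of CTD-2535L24.2.

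By feature, a stop codon label was given to 9 of 19 peaks in control (47.4%, bounds 24.4 and 71.1%). In DF2 siRNA it was given to 7 of 19 (36.8%, bounds 16.3 and 61.6%). The shares over the lists were 42.7% and 43.7%, within both pairs of bounds. A stop codon label did not always stand near the end of a gene. The first LRP6 peak of control had one and ended 71019 nt of genome before the RefSeq 3′ end. So did the first AXIN2 peak of control, 21065 nt before that end, and the first APC peak of both lists, 8040 nt before it. Coding sequence was named in 16 of 19 control peaks (84.2%, bounds 60.4 and 96.6%), against 61.7% of the list. In DF2 siRNA it was named in 15 of 19 (78.9%, bounds 54.4 and 93.9%), against 66.4%. Each list share lay within the bounds of its list. The list shares of every feature label also count peaks labelled as non-coding RNA only. These were 2116 of 15730 peaks in control and 1322 of 13219 in DF2 siRNA, and 0 of them were on the 10 genes. The sets compared were thus unlike, and the part of this in the differences was not tested.

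Ordered by best peak, ROR2 came first in both lists, and the order below it differed. In control the order was ROR2 (239), ROR1 (116), LRP6 (81.7), AXIN1 (69.0), APC (38.1), AXIN2 (14.6), LRP5 (14.2) and DVL1 (10.2). In DF2 siRNA it was ROR2 (175), AXIN1 (70.0), LRP6 (51), ROR1 (49.2), DVL1 (28.8), DVL3 (22.2), APC (21.4) and LRP5 (13.5). No spread is known for these values, so whether neighbours in either order differ could not be assessed. Best peaks had a median of 53.6 in control and 39.0 in DF2 siRNA, beside 28.9 and 23.0 over all genes of the lists. A best peak is a maximum over the peaks of a gene, and the part of peak number in this difference was not tested. Over single peaks the medians were 26.3 in control and 21.3 in DF2 siRNA, beside 20.8 and 17.7 over the lists. In each list 11 of the 19 peaks lay above the list median. Of the 10 genes, 5 had 2 or more peaks in control and 6 in DF2 siRNA. The shares over all genes in a list were 38.9% and 37.4%, against 5 of 8 and 6 of 8 here.

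**Figure D4:**
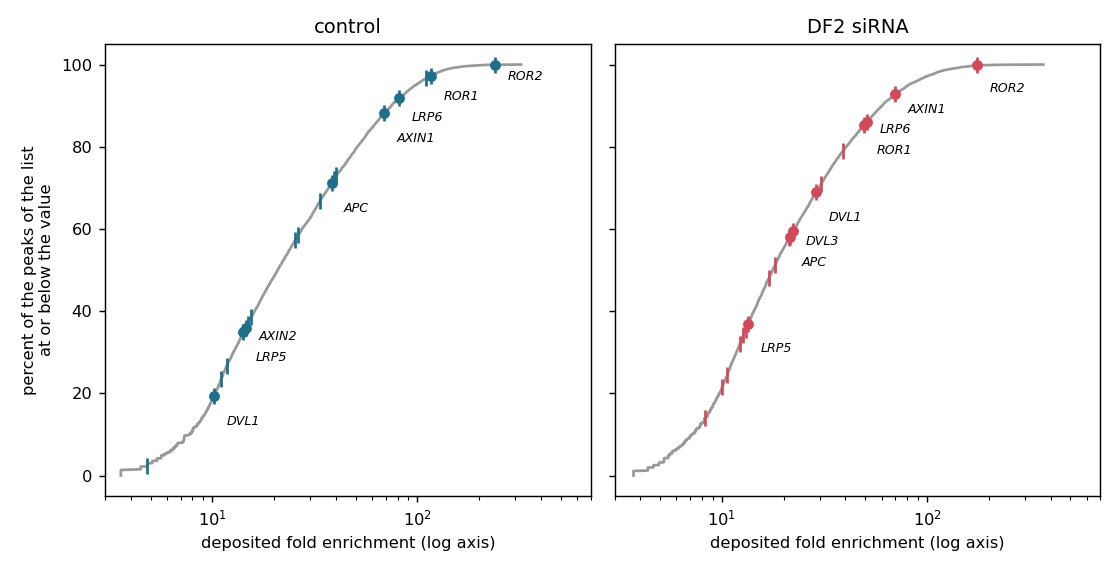
Cumulative share of the peaks of each list (percent) by deposited fold enrichment (log axis), control on the left and DF2 siRNA on the right. Ticks mark every peak of the 10 genes and dots, with the gene's name, the best peak of each gene. DVL1 is the lowest dot in control (10.2) and lies above the middle of the list in DF2 siRNA (28.8).

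Around these 10 genes, a list of 81 other Wnt pathway genes was searched, of which 44 (54.3%) had a control peak, 42 (51.9%) a DF2 siRNA peak and 39 (48.1%) both. The shares of RefSeq protein-coding symbols were 37.2%, 34% and 31.6%. In control only there were 5, in DF2 siRNA only 3, and 34 had no peak. The median best fold enrichment of those with a peak was 40.4 in control and 38.6 in DF2 siRNA.

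The groups of this list are given by their counts, and differences between groups were not tested. Of 15 nuclear genes, which include CTNNB1 (beta-catenin itself) and its TCF and BCL9 partners, 11 were in both lists and 0 in a single list. Of the TCF and LEF genes, TCF7L2 was in both lists, and TCF7, TCF7L1 and LEF1 were in neither. CTBP2, a co-repressor, had the highest control value of this group, 141, and was listed at 46.7 in DF2 siRNA. BCL9L, a co-activator of beta-catenin, was listed at 92.0 and 159. Of 20 genes of the destruction complex and its regulators, 12 were in both. TNKS, the tankyrase that targets AXIN for degradation, was in control only at 10.3 with a −log10 p of 1.46, and the phosphatase subunit gene PPP2R1A at 12.5 (score 13). The kinase gene GSK3A was in DF2 siRNA only at 14.6.

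Of 10 genes of receptor turnover, 5 were in both and 0 in a single list. Among them were RNF43 and ZNRF3, ubiquitin ligases that remove Frizzled and LRP6 from the cell surface. Control and DF2 siRNA values were 115 and 86.4 for RNF43 and 132 and 166 for ZNRF3. Of 9 other co-receptor and planar polarity genes, 5 were in both. The cadherin CELSR2 had 109 in the control list and 129.6 in the other.

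Among 15 ligands, 5 had a peak in both lists, WNT5A, the ligand of ROR1 and ROR2, among them at 50.8 and 36.4. WNT11 (45.2, score 61) and WNT2B (10.7, score 21) were in control only and WNT10B (10.1, score 50) in DF2 siRNA only. Of 3 genes of ligand release and inactivation, WLS, which carries Wnt ligands to the cell surface, was in both. NOTUM, which removes their lipid, was in DF2 siRNA only at 9.37 (score 15). Of 9 secreted inhibitors the LRP6 antagonist DKK1 had peaks, in control only, the best at 21.9 (score 555). Genes in 1 list only had best values from 9.37 to 45.2.

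**Figure D5:**
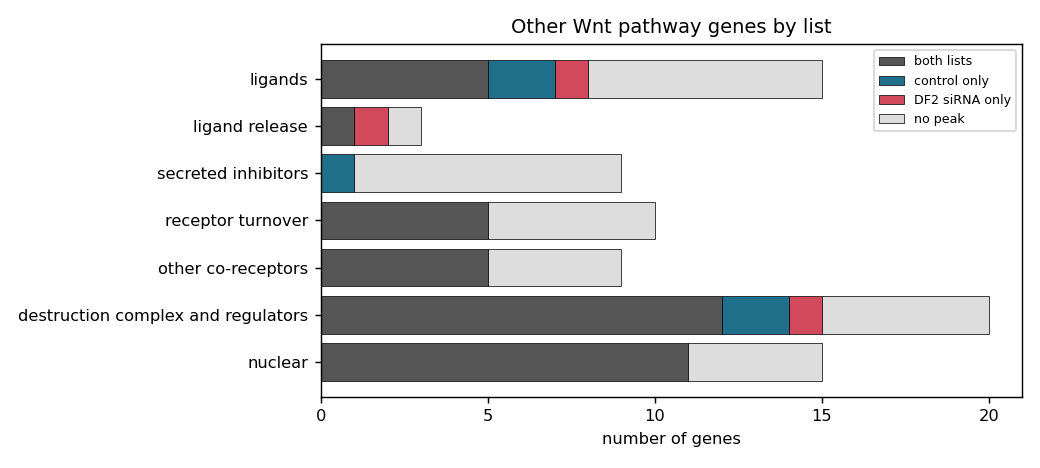
Number of other Wnt pathway genes in each group by where they had a peak, as stacked bars from 0. The nuclear group has 11 of 15 genes in both lists and 0 in a single one, and 8 of 9 secreted inhibitors have no peak.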

How the data were processed

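The submitters' processing notes name HISAT2 and the build hg38. Which peak caller, settings, annotation and strand rule were used, and how the 2 immunoprecipitates of a condition were combined, are details not given in the sources here. RNA had been broken to about 100 nt, per the labels. The authors deposited, for every peak, a fold enrichment (a ratio whose reference is not stated) and a score (a whole number whose meaning is not stated). Per the file headers, control peaks carry the −log10 of a p-value and DF2 siRNA peaks the −log10 of an FDR, and its minimum was 1.30 in both lists. By these headers the same minimum stands for unlike measures, so a peak in 1 list only is not a difference at an equal cut-off.

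Peak positions were read as half-open blocks and are printed counted from 1. On the minus strand the deposited block sizes run in transcript order and were reversed, after which the blocks of every peak ended at the peak's end. Overlap meant at least 1 shared exonic base on the same strand. Where a peak had several labels, a stop codon label was counted first, then 3′ UTR, then coding, then 5′ UTR. Gene ends and start sequences came from RefSeq (GRCh38.p14), in which all 10 symbols were found. Percentiles count peaks of the same list with a lower value. The overlap procedure was tested on simulated data. No sequence of whole peaks was used, so the motif was not counted in them. The 10 genes and the pathway and marker lists were chosen with earlier results of these data known. Named were all 10 genes and, of the pathway list, genes in 1 list only and the 3 highest per list. BCL9L, ZNRF3, CTBP2, RNF43 and CELSR2 followed from this. CTNNB1, WNT5A, WLS and the TCF and LEF genes were added to describe groups after their values were seen. Computation was done in Python 3.11.15 with numpy 2.4.6, pandas 2.3.3, matplotlib 3.10.9 and scipy 1.17.1.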

Additional observations from a re-analysis of the deposited data

How the results depend on the processing

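Alternatives were a p or FDR 100 times smaller, equal list lengths, the upper 50% by fold enrichment, joining of near peaks, positions in place of gene names, other overlap rules, and single-label or narrow peaks. Reading block sizes in the listed order was added after seeing the data and left both overlap counts of the members at 16. Of 36 alternative values, 28 stayed within 1.5 times. Some of these could not move, since joining near peaks cannot change a count of genes. Peaks were joined if less than 200 nt apart, and no peaks of the same gene lay that close. The peak counts, 19 in each list, thus could not move under this rule either. Equal lengths left the shorter DF2 siRNA list whole. With a p or FDR 100 times smaller, 12 member peaks were left in control. DVL1 was then in DF2 siRNA only, AXIN2 still in control only and LRP5 in neither list. By the file headers this rule cut a p-value in control and an FDR in DF2 siRNA, so it was not equally strict in both. In the upper 50% by fold enrichment, 5 genes and 11 peaks were left in control and 11 peaks in DF2 siRNA; DVL1 and DVL3 were in DF2 siRNA only, and AXIN2, LRP5 and DVL2 in neither. Stop codon labels were found on 0 of 5 control and 0 of 6 DF2 siRNA peaks with a single label, and on 1 of 7 and 2 of 9 peaks of at most 400 nt. These settings keep fewer peaks by construction. Every stop codon label of these genes stood beside other labels, so the single-label rule could leave only 0 of them. By position, 9 genes had a DF2 siRNA peak, since AXIN2 joined. DVL3 was in DF2 siRNA only in all 5 settings that listed genes, the reported one included. Settings that only remove peaks cannot give DVL3 a control peak, so of these only assignment by position could have. No paired analysis was possible because each list pools both libraries of a condition, and for the same reason no library could be left out.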

Other observations

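The overlap of AXIN2 with a peak under another gene name is one of a small class. Of the 2021 genes in the control list only, 45 had a peak that a DF2 siRNA peak of another gene overlapped on the same strand. The same held for 22 of the 606 genes found in DF2 siRNA only. DVL3 was not among them.

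Read in the listed order, the block sizes of 3918 control peaks (24.9%) and 2860 DF2 siRNA peaks (21.6%) missed the end of the peak, and 0 of these lay on the plus strand. With the sizes reversed on the minus strand, 0 missed it. Control peaks without a DF2 siRNA peak then numbered 4426 in place of 4423, and DF2 siRNA peaks without a control peak 1656 in place of 1653.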
